A study of Mus musculus with 37 samples.

Results

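Interleukin-6 (IL-6) family cytokines and the STAT3 pathway they use were followed in left ventricular RNA from mice after cardiac arrest. The 10 genes were found by symbol in a table of 56748 genes. They were 3 ligands (Il6, Osm and Lif), 4 receptor chains (Il6ra, Osmr, Lifr and Il6st), the transcription factors Stat3 and Cebpd, and the feedback inhibitor Socs3. Each symbol matched 1 row.

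Cytokines of this family bind a receptor chain of their own and signal through the shared chain gp130, which Il6st encodes. Janus kinases on gp130 then phosphorylate STAT3, which enters the nucleus and switches on genes such as Socs3, whose product blocks further signalling at the receptor. In the heart, oncostatin M and leukemia inhibitory factor are known to act on cardiomyocytes through gp130, and IL-6 is a leading inducer of the acute phase response in the liver.

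The 37 libraries came from ventricles of male and female C57BL/6J mice aged 8 to 10 weeks. The 5 Naïve mice received anesthesia alone and were neither intubated nor injected. Adr mice, which the labels call sham, were ventilated and received saline and, 8 min later, adrenaline by injection into the left ventricle. Arrest mice received potassium chloride by the same route, had 8 min of asystole, and were resuscitated with the same adrenaline and chest compressions. Ventricles were taken after 0.5, 1, 3 or 7 days, with 4 libraries in each of these 8 groups. The apex, where the needle entered, had been discarded. The labels name no mouse for each library, so p-values measure the spread between these libraries, part of which may be technical. Every group held libraries of both sexes by Xist and Ddx3y, so no group was made of repeats of 1 mouse alone. Levels are given in FPKM, fragments corrected for gene length and library size, which allows genes to be compared per length.

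Each library held 13.2 M to 30.2 M fragments counted on genes. Cardiomyocyte markers (7 genes) summed to between 7076 and 15723 FPKM in 36 libraries. Replicate 3 of the Adr 3-day group stood apart, with a sum of 3300 FPKM, 9.36% of fragments on mitochondrial genes against 20.8% to 30.9% elsewhere, and a summed level of 8 monocyte and macrophage markers of 2558 FPKM. Adr 3-day differences are therefore given with and without it. Naïve replicate 4 had the fewest genes above 0 FPKM, 13475 against 15398 to 21377 elsewhere, and was kept in every comparison with Naïve. Ly6g, a defining neutrophil marker, was listed at 0 in every library, and the other 7 neutrophil markers reached at most 34.7 FPKM in sum. In bulk tissue, fewer cells of a type and less RNA per cell cannot be told apart.

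The promoters of the genes that changed are shown because STAT3 binds DNA at the palindrome TTCNNNGAA. The 250 bases upstream of the start were taken from RefSeq on GRCm38.p6, where 8 of the 10 genes were found by symbol. Osm and Cebpd were not matched. Capitals mark the wider STAT pattern TTCNNNNAA on either strand, which contains every TTCNNNGAA match. The Socs3 sequence is on the minus strand at chr11:117969367-117969616, that of Stat3 on the minus strand at chr11:100939541-100939790, and that of Osmr on the minus strand at chr15:6874314-6874563.
Socs3: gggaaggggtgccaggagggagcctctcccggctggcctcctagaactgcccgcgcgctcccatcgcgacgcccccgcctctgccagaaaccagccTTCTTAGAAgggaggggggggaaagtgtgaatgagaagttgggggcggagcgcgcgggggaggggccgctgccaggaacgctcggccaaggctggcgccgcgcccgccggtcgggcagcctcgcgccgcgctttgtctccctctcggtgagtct
Stat3: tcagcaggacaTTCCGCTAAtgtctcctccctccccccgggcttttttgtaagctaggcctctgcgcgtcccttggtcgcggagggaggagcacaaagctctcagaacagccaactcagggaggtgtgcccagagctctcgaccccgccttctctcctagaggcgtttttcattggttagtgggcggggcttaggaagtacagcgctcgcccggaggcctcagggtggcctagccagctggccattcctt
Osmr: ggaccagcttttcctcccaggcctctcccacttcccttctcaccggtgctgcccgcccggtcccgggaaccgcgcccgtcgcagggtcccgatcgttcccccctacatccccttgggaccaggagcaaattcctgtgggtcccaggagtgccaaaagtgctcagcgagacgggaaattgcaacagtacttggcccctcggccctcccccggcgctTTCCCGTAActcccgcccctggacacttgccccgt
Of these 3 sequences, that of Socs3 held the palindrome, as TTCTTAGAA, starting 154 bases upstream of the start. Of the other 7 genes matched, 0 held it in this window. The palindrome was present in 7.02% of 32851 promoters of the same length, and the wider pattern in 34.2%. The wider pattern was found in 7 of the 8 genes, Lifr being the exception in both of its listed promoters. These matches describe letters only and show no binding.

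In Naïve hearts the shared chain was the most abundant of the 10 transcripts. Il6st stood at 24.6 ± 1.37 FPKM (SD, n = 5), above every other gene in each of the 5 libraries. Stat3 (12.4 ± 1.95 FPKM) and Cebpd (10.5 ± 1.94 FPKM) followed and overlapped each other. Lifr was at 5.09 ± 1.65 FPKM. Socs3 (2.57 ± 1.13 FPKM), Osmr (2.19 ± 0.689 FPKM) and Il6ra (1.59 ± 0.761 FPKM) came next and overlapped one another. Lifr overlapped each of them through replicate 4, at 2.42 FPKM. Lif was at 0.123 ± 0.0840 FPKM, while Il6 and Osm were at 0 in all 5 libraries.

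At 0.5 days after arrest the order had changed at its upper end. Cebpd (30.4 ± 5.89 FPKM, n = 4), Il6st (27.2 ± 5.86 FPKM) and Stat3 (24.0 ± 2.80 FPKM) overlapped. Socs3 came next at 14.4 ± 7.57 FPKM, then Osmr at 8.74 ± 1.75 FPKM, and these too overlapped. Lifr followed at 5.53 ± 0.570 FPKM, below Osmr in every library of the group. Il6ra was at 1.59 ± 0.266 FPKM.

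Socs3, Cebpd, Stat3 and Osmr rose in Arrest hearts at 0.5 days and 1 day against Naïve, by 1.56-fold to 4.14-fold on the log2(FPKM + 1) scale, and none of the 8 genes tested together passed in Adr hearts at any time. Osm was tested separately, with p-values adjusted over its own 8 comparisons with Naïve and not over all genes. It passed in Arrest hearts at both of these times and in Adr hearts at 0.5 days, on as few as 2 fragments in a library. Set directly against Adr hearts of the same time, none of the 8 genes passed in Arrest hearts. There 0.0% of all genes were called at 0.5, 1 and 3 days and 0.00603% at 7 days. Levels were compared with limma on log2(FPKM + 1) across the 16579 genes that reached 0.5 FPKM in 4 or more libraries, and p-values were adjusted over these genes (Benjamini-Hochberg, threshold 0.05). Il6 and Osm reached 0.5 FPKM in only 3 libraries each and were tested separately. Of the 8 genes tested, 4 rose and 0 fell at 0.5 days, where 3.2% of all genes were called, 1.75% higher and 1.45% lower. At 1 day 4 rose and 0 fell, where 7.11% of all genes were called, 3.89% higher and 3.22% lower. The same 4 genes were those with every Arrest library above every Naïve library, which held for 4.49% of all genes at 0.5 days and 5.69% at 1 day. Over the 8 genes the median log2 difference was 0.56 at 0.5 days and 0.44 at 1 day, beside 0.03 over all genes at both times. The genes were chosen with earlier results of these data known, so these counts and medians describe the set and are not an independent test of it.

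Socs3 encodes the inhibitor that STAT3 induces against its own receptors. It measured 1.81, 2.24, 1.95, 4.55 and 2.31 FPKM in the Naïve libraries. In Arrest hearts it measured 10.2, 25.7, 11.7 and 10.03 FPKM at 0.5 days and 14.0, 6.98, 11.5 and 8.64 FPKM at 1 day. All 8 libraries lay above the highest Naïve value, and the 0.5-day value of 25.7 FPKM was the highest of all 37 libraries. The log2 difference from Naïve was 2.05 (SE 0.42, adjusted p = 0.00741) at 0.5 days and 1.66 (SE 0.42, adjusted p = 0.0147) at 1 day. Without the 25.7 FPKM library (replicate 2) the 0.5-day difference was 1.75 with adjusted p = 0.0556. At 3 days Socs3 was at 4.82, 3.08, 3.36 and 8.92 FPKM, and at 7 days at 3.11, 3.04, 1.97 and 1.94 FPKM. The 3-day libraries overlapped Naïve (log2 difference 0.71, adjusted p = 0.471), as did the 7-day libraries (log2 difference 0.00, 95% interval -0.86 to 0.87).

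Adr libraries spread widely in Socs3. The 0.5-day libraries held 3.22, 3.79, 4.14 and 11.7 FPKM, the 1-day libraries 2.40, 6.37, 3.33 and 2.32 FPKM, and the 3-day libraries 1.57, 1.54, 13.4 and 12.3 FPKM. At 7 days they held 2.84, 2.83, 2.58 and 0.961 FPKM. Each Adr group overlapped Naïve, at 3 days with 2 libraries below and 2 above its range, and the log2 differences ran from -0.12 to 0.80 with adjusted p of 0.404 or more. Without replicate 3 the Adr 3-day difference went from 0.78 to 0.36 (adjusted p = 0.904). The summed level of 8 neutrophil markers was 33.5 FPKM in the Adr 0.5-day library with 11.7 FPKM of Socs3 and at most 7.03 FPKM in the other 3 of that group. It was 34.7 and 23.7 FPKM in the Adr 3-day libraries with 13.4 and 12.3 FPKM, and 3.92 and 9.50 FPKM in the others of that group. In Arrest hearts at 0.5 days the sums ran from 5.27 to 32.2 FPKM, the highest in replicate 2, against 0 to 10.1 FPKM in Naïve. In Arrest hearts at 1 day the sums were 19.1, 6.52, 20.3 and 10.2 FPKM, beside 14.0, 6.98, 11.5 and 8.64 FPKM of Socs3 in the same libraries. Sum and Socs3 did not go together in every library. Arrest 0.5-day replicate 3 had a sum of 5.27 FPKM with 11.7 FPKM of Socs3. Arrest 3-day replicate 1 had 31.9 FPKM with 4.82 FPKM, and replicate 4 had 8.27 FPKM with 8.92 FPKM. In Naïve replicate 4, the highest of its group in Socs3 at 4.55 FPKM, the sum was 0. None of the 5 neutrophil markers tested was called in Arrest hearts at 0.5 days or 1 day (limma, 0 of 5 at each, with 3 and 2 at an unadjusted p under 0.05, as for 18.1% and 21.7% of all genes), where their median log2 difference was 1.15 and 1.20. Of 8 monocyte and macrophage markers 0 were called at each time (1 and 0 unadjusted, median log2 difference 0.20 and 0.05). Among the marker lists of other cell types, the calls in these comparisons were the endothelial markers Emcn (0.60) and Kdr (-0.95) at 0.5 days, and Kdr (-0.92), Cdh5 (-0.42) and the smooth muscle marker Myh11 (-0.90) at 1 day, of 5 endothelial and 4 smooth muscle and pericyte markers. The part of other cell types in the Socs3 values was not tested.

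**Figure D1:**
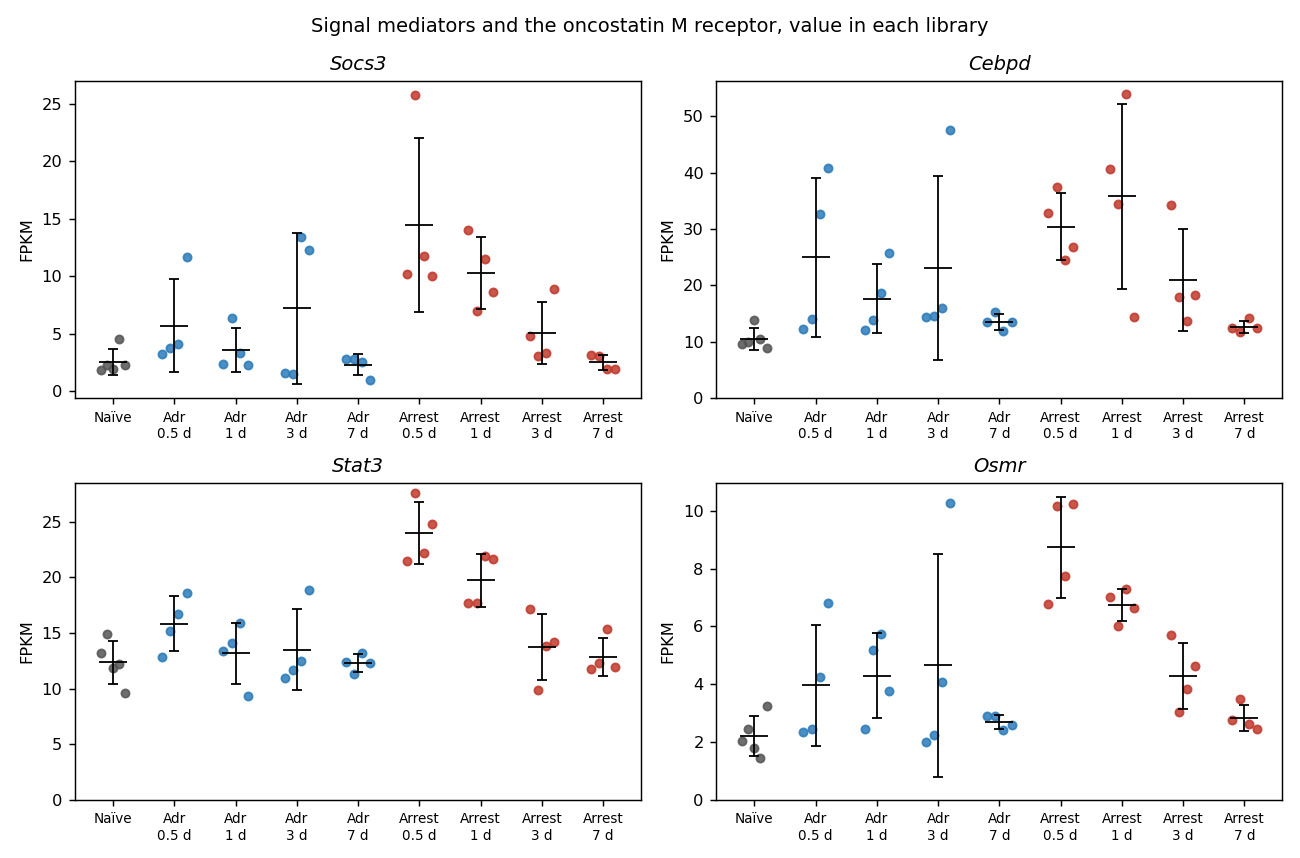
Levels (FPKM, linear axes) of Socs3, Cebpd, Stat3 and Osmr in each of the 37 libraries, by group. Points are libraries, long ticks are means and bars are 1 SD. Every Arrest library at 0.5 days and 1 day lies above every Naïve library in all 4 panels, and some Adr libraries at 0.5 and 3 days reach the Arrest range. In Cebpd the Adr groups at 1 day and 7 days also reach it.

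Cebpd encodes C/EBP delta, a transcription factor of the acute phase response that STAT3 induces. It measured 8.93 to 13.9 FPKM (median 9.93) in Naïve hearts, and 32.8, 37.5, 24.6 and 26.8 FPKM in Arrest hearts at 0.5 days. At 1 day it measured 40.6, 34.4, 53.9 and 14.5 FPKM, so that 1 library stood just above Naïve. The log2 difference was 1.44 (SE 0.34, adjusted p = 0.0173) at 0.5 days and 1.55 (SE 0.34, adjusted p = 0.00534) at 1 day. Without Arrest 0.5-day replicate 2 the former was 1.34 with adjusted p = 0.0769. Adr hearts at 0.5 days held 12.3, 13.9, 32.7 and 40.8 FPKM, with 2 libraries within or just above the Naïve range and 2 at the level of Arrest hearts (log2 difference 1.01, adjusted p = 0.168). At 3 days, Adr hearts held 14.3, 14.6, 15.9 and 47.6 FPKM, each above Naïve, which held for 1.29% of all genes, and the log2 difference of 0.88 was not called (adjusted p = 0.24). Without the library of low mitochondrial share that difference was 0.99 (adjusted p = 0.555). Adr hearts at 1 day held 12.1, 13.9, 18.6 and 25.8 FPKM (log2 difference 0.65, adjusted p = 0.369). Arrest hearts at 3 days held 34.2, 17.9, 13.6 and 18.3 FPKM, with 1 library inside the Naïve range (log2 difference 0.87, adjusted p = 0.232). At 7 days Cebpd lay between 11.6 and 14.1 FPKM in Arrest hearts and between 11.9 and 15.3 FPKM in Adr hearts, both overlapping Naïve.

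Stat3, the transcription factor at the centre of the pathway, had the smallest SE of the 4 genes on log2(FPKM + 1). It measured 13.2, 14.9, 11.8, 12.2 and 9.56 FPKM in Naïve hearts. In Arrest hearts it measured 21.4, 27.6, 22.2 and 24.8 FPKM at 0.5 days and 17.7, 17.7, 21.9 and 21.7 FPKM at 1 day. No Arrest library at these times fell to the Naïve range, and the log2 difference was 0.91 (SE 0.15, adjusted p = 0.00122) and then 0.64 (SE 0.15, adjusted p = 0.0103). In Adr hearts Stat3 measured 12.8 to 18.6 FPKM at 0.5 days and 9.36 to 15.9 FPKM at 1 day, overlapping Naïve (log2 difference 0.33, adjusted p = 0.323, and 0.08, adjusted p = 0.87). At 3 days Arrest hearts measured 9.84 to 17.2 FPKM, and at 7 days 11.7 to 15.3 FPKM, both overlapping Naïve. At 3 and 7 days Adr hearts measured 11.0 to 18.9 and 11.3 to 13.2 FPKM, with log2 differences of 0.10 (0.13 without the library of low mitochondrial share) and 0.01. Its mRNA level does not show how much of the protein was phosphorylated.

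Osmr encodes the chain that pairs with gp130 to form the receptor for oncostatin M. It measured 2.04, 2.43, 1.80, 1.45 and 3.25 FPKM in Naïve hearts. In Arrest hearts it measured 6.78, 10.2, 7.75 and 10.2 FPKM at 0.5 days and 7.01, 6.02, 7.29 and 6.65 FPKM at 1 day. Every one of these 8 libraries lay above every Naïve library, with a log2 difference of 1.62 (SE 0.27, adjusted p = 0.00105) at 0.5 days and 1.30 (SE 0.27, adjusted p = 0.00371) at 1 day. At 3 days Osmr measured 5.69, 3.04, 3.82 and 4.62 FPKM, of which 1 library fell within the Naïve range, and the log2 difference of 0.73 did not pass (adjusted p = 0.208). Adr hearts ranged from 2.34 to 6.81 FPKM at 0.5 days, 2.47 to 5.72 FPKM at 1 day and 2.01 to 10.3 FPKM at 3 days. Each of these groups overlapped Naïve, with log2 differences of 0.57, 0.71 and 0.63 (adjusted p = 0.336, 0.203 and 0.289). Without the library of low mitochondrial share the 3-day value was 0.61 (adjusted p = 0.684).

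Against Naïve at the later times, 0 of 8 genes passed in Arrest hearts at 3 days (limma, 0.139% of all genes called, 2 of 8 genes and 13.7% of all genes at an unadjusted p under 0.05) and at 7 days (0.0% called, 0 of 8 and 5.14% unadjusted). In Adr hearts 0 of 8 passed at each time, where 0.187%, 0.627%, 0.0% and 0.0% of all genes were called from the first to the last time, with 4, 1, 2 and 0 of 8 at an unadjusted p under 0.05, beside 14%, 14.7%, 13.9% and 6.17% of all genes. The count-based limma-voom fit also called 0 of 8 in each of these 6 comparisons.

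The description number of the sample labels, whose meaning the labels do not give, ran from 116 to 127 in Naïve and from 70 to 95 in Arrest 1-day libraries. The numbers do not overlap, so the number and the group cannot be told apart at 1 day, and 0 of the 4 genes passed with the number in the model. At 0.5 days the Arrest numbers were 103, 104, 99 and 124, so that replicate 4 alone fell within the Naïve range. With the number in the model 4 genes passed, but the overlap rests on that 1 library. The numbers of the Adr 1-, 3- and 7-day groups (71 to 102, 63 to 87 and 92 to 115) and of the Arrest 3-day group (90 to 112) also lay below those of Naïve.

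The other 3 receptor chains were not called in any comparison. Il6st, the shared gp130 chain, measured 22.4 to 25.8 FPKM in Naïve hearts and 20.3, 26.3, 34.6 and 27.7 FPKM in Arrest hearts at 0.5 days (log2 difference 0.12, 95% interval -0.15 to 0.38). In Adr hearts at 0.5 days it measured 17.2, 18.2, 20.4 and 19.4 FPKM. All 4 of these lay below all 5 Naïve libraries, as for 2.96% of all genes, but the log2 difference of -0.37 did not pass (SE 0.13, adjusted p = 0.19). At 1 day the Adr libraries, at 19.5 to 22.0 FPKM, again lay below Naïve, as for 2.73% of all genes (log2 difference -0.26, adjusted p = 0.349). Lifr encodes the chain that binds leukemia inhibitory factor. At 0.5 days and 1 day all 8 Arrest libraries had 4.78 to 6.11 FPKM, inside the Naïve range of 2.42 to 6.77 FPKM (log2 difference 0.15, 95% interval -0.24 to 0.54 at 0.5 days, and 0.13, 95% interval -0.26 to 0.51 at 1 day). Il6ra, the chain that gives a cell its own sensitivity to IL-6, ranged from 0.707 to 2.84 FPKM over all 37 libraries. Its log2 difference from Naïve at 0.5 days after arrest was 0.04 (95% interval -0.36 to 0.45). In Adr hearts at 3 days the log2 differences of Il6st, Lifr and Il6ra were 0.17, 0.16 and 0.06, and 0.19, 0.36 and -0.05 without the library of low mitochondrial share, with adjusted p of 0.583 or more in each case.

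**Figure D2:**
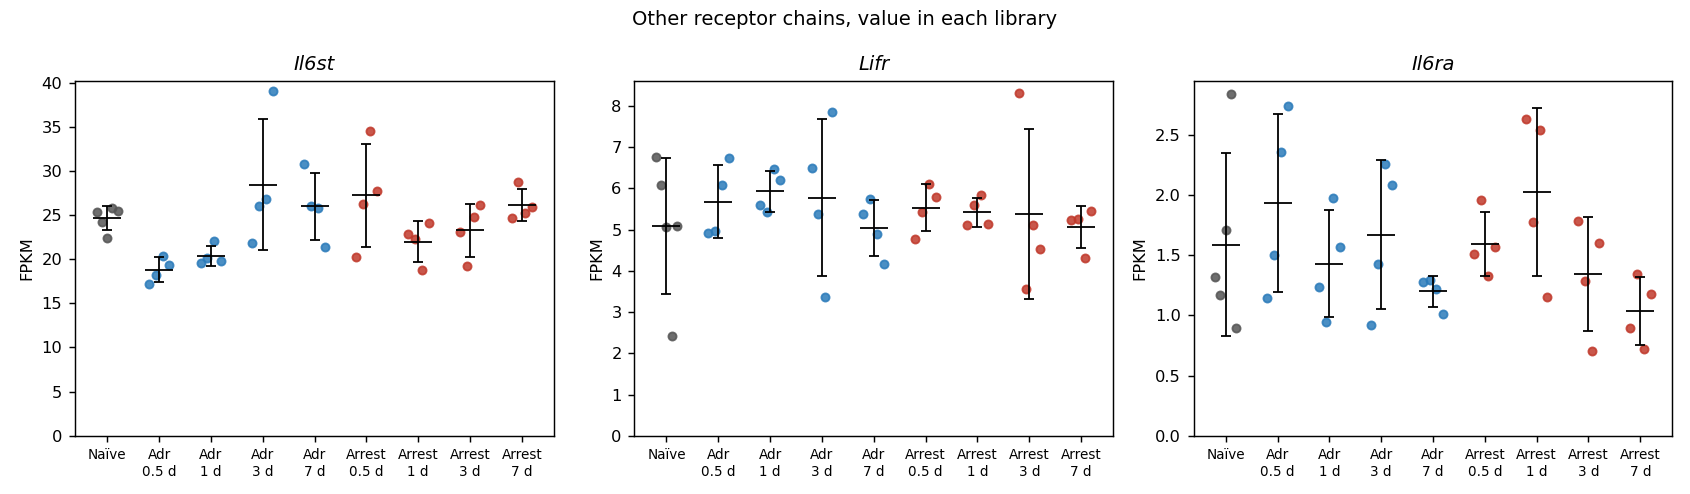
Levels (FPKM, linear axes from 0) of Il6st, Lifr and Il6ra in each library, by group. Points are libraries, long ticks are means and bars are 1 SD, and the Arrest libraries overlap Naïve in all 3 panels.

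The ratio of Osmr to Lifr was looked at after their levels were seen and is given as a description with no test. The ratio lay below 1 in all 5 Naïve libraries, from 0.302 to 0.637. In Arrest hearts it lay above 1 in all 4 libraries at 0.5 days (1.27 to 1.88) and in all 4 at 1 day (1.08 to 1.37). It was above 1 in 1 of 4 Arrest libraries at 3 days, where all 4 (0.684 to 1.02) lay above every Naïve ratio, and in 0 of 4 at 7 days. In Adr hearts it was above 1 in 1 of 4 libraries at 0.5 days, 0 of 4 at 1 day, 2 of 4 at 3 days and 0 of 4 at 7 days. One of the Adr 3-day libraries above 1, at 1.21, was the library of low mitochondrial share, and the other was at 1.31.

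**Figure D3:**
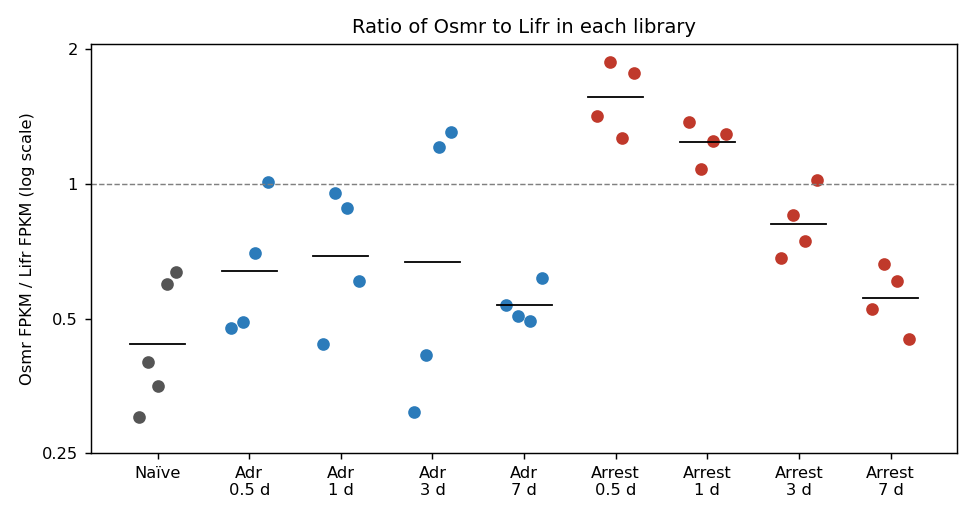
Ratio of Osmr to Lifr (FPKM over FPKM, log scale) in each library, by group. Points are libraries, short lines are geometric means and the dashed line marks equal levels, above which lie all 8 Arrest libraries at 0.5 days and 1 day and none of the Naïve libraries.

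The 3 ligands were scarce. FPKM times gene length and a divisor inferred for each library gave whole fragments, and the number behind most values is given, since a count of 0 allows up to 3 fragments. Osm encodes oncostatin M, made mainly by leukocytes. It had 0 fragments in each of the 5 Naïve libraries, which allows at most 0.1005 FPKM in any of them. In Arrest hearts it had 6, 76, 9 and 15 fragments at 0.5 days, or 0.188, 1.98, 0.255 and 0.289 FPKM, and 11, 27, 2 and 3 fragments at 1 day. Adr hearts at 0.5 days had 6, 4, 2 and 4 fragments, or 0.0588 to 0.141 FPKM, a range that reaches below the 0.1005 FPKM allowed in Naïve. These 3 groups had Osm in every library, with log2(FPKM + 1) above Naïve by 0.63, 0.37 and 0.15, each with p = 0.0159 and adjusted p = 0.0423 over the 8 groups (exact two-sided permutation test, 4 against 5, for which 0.0159 is the smallest p possible). This p means only that the groups did not overlap. Every library lay above Naïve for 4.49% of the 16579 tested genes in Arrest hearts at 0.5 days and 5.69% at 1 day. The Adr 0.5-day and Arrest 1-day Osm values rest on 2 to 27 fragments, and 3 of these 8 libraries were at or under 3. Naïve libraries had 13475 to 16925 genes above 0 FPKM. Adr 0.5-day libraries had 18496 to 21377, Arrest 0.5-day libraries 17081 to 20435 and Arrest 1-day libraries 16812 to 18436. The part of this wider detection in the Osm differences was not tested. Osm was present in 3 of 4 libraries in each of the Arrest 3-day and Adr 7-day groups (adjusted p = 0.152 for each), in 2 of 4 in the Arrest 7-day and Adr 1-day groups, and in 1 of 4 in the Adr 3-day group. That last library, of low mitochondrial share, held 179 fragments, the most of any.

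Il6 also had 0 fragments in every Naïve library, which allows at most 0.0940 FPKM. At 0.5 days after arrest it had 0, 166, 0 and 18 fragments, so that replicate 2, at 4.04 FPKM, held nearly all of it. At 1 day all 4 Arrest libraries held Il6, with 19, 6, 15 and 8 fragments or 0.597, 0.160, 0.478 and 0.194 FPKM. The exact two-sided permutation test gave p = 0.0159 for 1 day, which did not pass over the 8 groups (adjusted p = 0.127), and the 0.5-day group gave p = 0.333. In Adr hearts Il6 appeared in 1 library at 0.5 days and in 2 of 4 at each later time, with 1 to 56 fragments. Arrest hearts at 3 and 7 days each had 1 library with Il6, at 15 and 13 fragments.

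Lif, a cytokine named for its action on leukemia cells, was present in 4 of 5 Naïve libraries at 0.0854 to 0.206 FPKM. It passed the filter on low values because 4 libraries reached 0.5 FPKM, and it was not called in any comparison. At 0.5 days after arrest it measured 0, 1.14, 0.207 and 0.0806 FPKM (log2 difference 0.21, adjusted p = 0.623). Its highest value, 1.38 FPKM, was in the Adr 3-day library of low mitochondrial share, and the Adr 3-day log2 difference was 0.30 with it and 0.04 without it (adjusted p = 0.499 and 0.993). Arrest 0.5-day replicate 2 was the highest of its group in all 3 ligands and in Socs3, Stat3 and Cebpd.

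**Figure D4:**
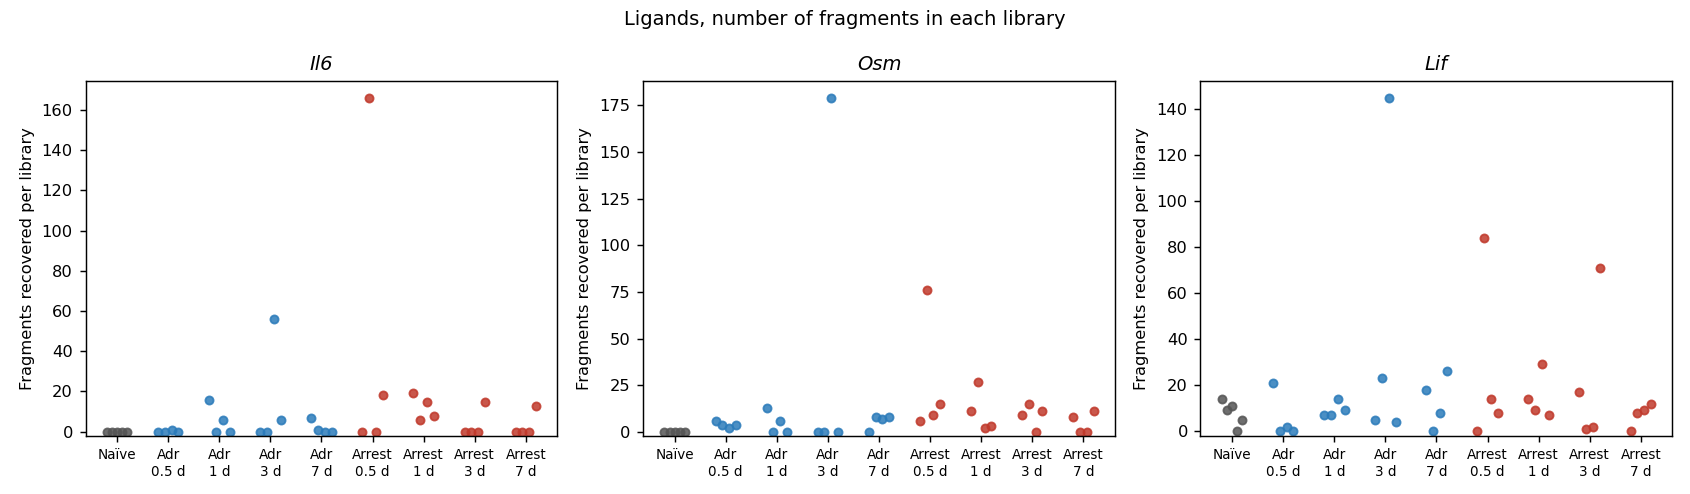
Fragments of Il6, Osm and Lif recovered in each library (linear axes), by group, with 1 point per library. All 5 Naïve libraries sit at 0 for Il6 and Osm, and the tallest points are Arrest 0.5-day replicate 2 with 166 Il6 fragments and Adr 3-day replicate 3 with 179 Osm fragments.

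Arrest hearts were then set against Adr hearts of the same time, which also had ventilation, injection into the ventricle and adrenaline but not potassium chloride, asystole or chest compressions. None of the 8 genes passed at any time (limma, 0 of 8 at each time), where 0.0% of all genes were called at 0.5, 1 and 3 days and 0.00603% at 7 days. At an unadjusted p under 0.05 there were 4 genes at 0.5 days, 4 at 1 day and 0 at 3 and 7 days, beside 3.87%, 6.59%, 5.37% and 2.53% of all genes, and limma-voom on the recovered fragments also called 0 at each time. Stat3 was above all Adr libraries in every Arrest library at 0.5 days, as for 1.72% of all genes, with a log2 difference of 0.58 (95% interval 0.24 to 0.91). Osmr differed by 1.05 (95% interval 0.47 to 1.62), Socs3 by 1.25 (95% interval 0.34 to 2.16) and Il6st by 0.49 (95% interval 0.21 to 0.77) on the log2 scale at that time. Each of these 3 overlapped between the arms. Adjusted p was 0.69 or more for each. At 1 day Socs3, Stat3 and Osmr were higher in every Arrest than in every Adr library, as for 1.62% of all genes, by 1.33 (95% interval 0.42 to 2.24), 0.56 (95% interval 0.23 to 0.90) and 0.59 (95% interval 0.02 to 1.17). None of these passed the test over all genes (adjusted p of 0.465 or more). At 3 days the Socs3 difference was -0.07 (95% interval -0.98 to 0.84), and 0.36 without the library of low mitochondrial share. Whether the difference between arms changed from 0.5 to 7 days was tested as an interaction, and 0 of 8 genes passed (limma, 0.0% of all genes called). Osmr, Stat3 and Il6st had an unadjusted p under 0.05, as for 2.52% of all genes, with interaction estimates of 1.00, 0.53 and 0.47 on the log2 scale, and 0 of 8 passed by limma-voom. The estimate for Socs3 was 1.13 (95% interval -0.16 to 2.41).

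**Figure D5:**
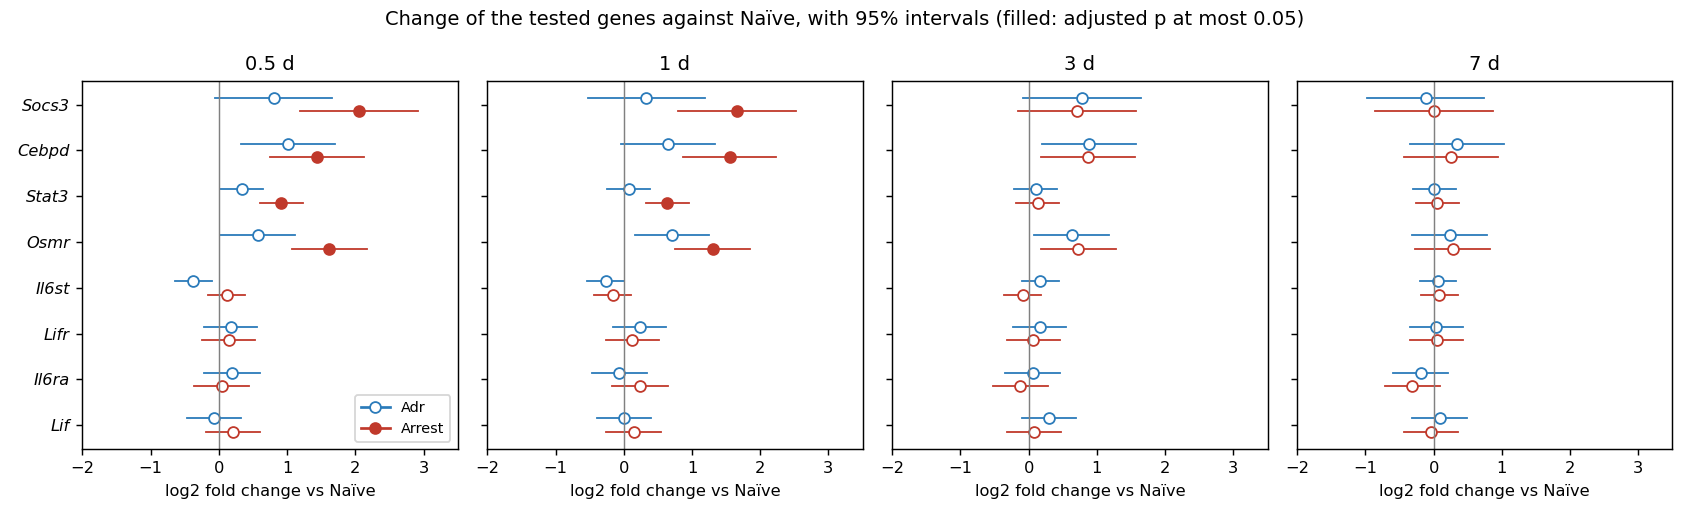
Log2 difference from Naïve (on log2(FPKM + 1)) of the 8 genes tested, in Adr (blue) and Arrest (red) hearts at the 4 times. Circles are estimates, lines are 95% intervals, and filled circles passed the adjusted threshold, which are Socs3, Cebpd, Stat3 and Osmr in Arrest hearts at 0.5 days and 1 day.

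Over time, the Arrest hearts fell from their early levels. From 0.5 to 7 days Socs3 fell by 2.04 on the log2 scale (SE 0.45, adjusted p = 0.0295), Osmr by 1.34 (SE 0.28, adjusted p = 0.0295) and Stat3 by 0.86 (SE 0.16, adjusted p = 0.0226). These 3 of 8 genes fell where 0.38% of all genes were called, 0.247% lower. Cebpd had a log2 difference of -1.19 that did not pass (adjusted p = 0.137), and in all 4 genes every 7-day library lay below every 0.5-day library, as for 5.27% of all genes. From 1 to 7 days Socs3 (log2 difference -1.66, adjusted p = 0.0442) and Cebpd (-1.30, adjusted p = 0.0494) fell, where 1.88% of all genes were called, 1.14% lower. All 4 genes were lower in every 7-day than in every 1-day library, as for 6.56% of all genes, and Il6st was higher in every 7-day library, as for 6.32% (log2 difference 0.24, adjusted p = 0.431). Stat3 (-0.59) and Osmr (-1.02) had adjusted p = 0.053 each. The calls over time rest close to the threshold. Leaving out any of Arrest 0.5-day replicate 2 and Arrest 7-day replicates 1, 2 and 4 gave 0 calls from 0.5 to 7 days, and leaving out Arrest 0.5-day replicate 4 or Arrest 7-day replicate 3 gave 1. Leaving out any 1 library gave 0 to 4 calls from 1 to 7 days, 0 without Arrest 1-day replicate 1, 2 or 3 or any of the 4 Arrest 7-day libraries, and also 0 without Naïve replicate 1, 2 or 3, Adr 1-day replicate 3 or Adr 7-day replicate 1, 2 or 3, which enter only the shared estimate of the spread. It gave 1 without Naïve replicate 4, Adr 1-day replicate 2, Adr 7-day replicate 4, Arrest 3-day replicate 4 or any of the 4 Arrest 0.5-day libraries. Between 0.5 days and 1 day none of the 8 genes passed (limma, 0.0% of all genes called, 0 of 8 and 2.96% of all genes with an unadjusted p under 0.05, 0 by limma-voom). Among the Adr hearts none of the 8 was called between times, where 0.0% (1 against 0.5 days), 0.0422% (7 against 1 day) and 0.00603% (7 against 0.5 days) of all genes were called, and 0, 1 and 2 of the 8 had an unadjusted p under 0.05, beside 2.79%, 9.67% and 8.12% of all genes (limma, with 0 by limma-voom in each). From 0.5 to 7 days every Adr library was lower in Socs3, as for 4.69% of all genes, and higher in Il6st, as for 3.5% (log2 difference -0.92, adjusted p = 0.611, and 0.44, adjusted p = 0.322).

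Other genes of the pathway were taken from lists by role. The lists were chosen with earlier results of these data known, so their counts are a description and not an independent test. Of 21 genes that STAT3 induces or that belong to the acute phase response, 11 rose and 0 fell at 0.5 days after arrest, and 8 rose and 0 fell at 1 day, against the 1.75% and 3.89% of all genes called higher. The median log2 difference of the 21 was 1.25 and 1.23. Serpina3n, a secreted protease inhibitor, went from 6.05 ± 7.25 FPKM in Naïve (n = 5) to 142.3 ± 41.8 FPKM at 0.5 days and 165.1 ± 52.0 FPKM at 1 day (n = 4 each, log2 difference 4.75 and 4.94, adjusted p = 0.00337 and 0.00113). Lcn2, which binds bacterial iron carriers, went from 1.74 ± 1.42 FPKM to 43.1 ± 30.6 and 38.8 ± 17.9 FPKM (log2 difference 3.85 and 3.90, adjusted p = 0.00466 and 0.00208). Timp1, an inhibitor of matrix metalloproteinases, rose by 3.13 and 2.65 on the log2 scale, Lrg1, a secreted leucine-rich glycoprotein, by 2.52 and 2.27, Junb, an AP-1 factor, by 1.64 and 2.10, and Il4ra, the IL-4 receptor alpha chain, by 1.79 and 1.39. Myc and Tnfrsf12a rose at both times, and Bcl3, Pim1 and Saa3 at 0.5 days. Without Arrest 0.5-day replicate 2 the count at 0.5 days was 4, without Naïve replicate 1 it was 5, without Naïve replicate 5 or Arrest 0.5-day replicate 1 it was 6, and without Arrest 0.5-day replicate 4 it was 7. Without Arrest 1-day replicate 3 the count at 1 day was 5. With the description number in the model it was 5 at 0.5 days and 0 at 1 day. In Adr hearts 0 of 21 were called at each of the 4 times, with 6, 7, 7 and 0 at an unadjusted p under 0.05, beside 14%, 14.7%, 13.9% and 6.17% of all genes. Serpina3n was at 57.1 ± 54.0 FPKM in Adr hearts at 0.5 days and 54.2 ± 40.6 FPKM at 1 day. Lcn2 was at 11.9 ± 12.7 and 11.2 ± 11.5 FPKM. Set directly against Adr hearts, 0 of 21 were called in Arrest hearts at 0.5 days and at 1 day (limma, 0.0% of all genes called). At an unadjusted p under 0.05 there were 7 at each time, beside 3.87% and 6.59% of all genes.

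The remaining lists had few calls, to be read against the 1.75% of all genes called higher and 1.45% called lower at 0.5 days and the 3.89% and 3.22% at 1 day. Among 9 tested JAK and STAT genes 1 rose at each time, Jak3, from 3.09 ± 0.554 FPKM in Naïve to 6.23 ± 1.29 FPKM at 0.5 days and 5.92 ± 1.28 FPKM at 1 day (log2 difference 0.82 and 0.75, adjusted p = 0.0247 and 0.0216). Of 15 other negative regulators 0 were called at 0.5 days, and 2 fell and 0 rose at 1 day. These were Socs4 (log2 difference -0.57, adjusted p = 0.0181) and Socs5 (-0.52, adjusted p = 0.0162), relatives of Socs3. Of 6 tested genes of the IL-1 and TNF axis, the TNF receptor Tnfrsf1a rose at 0.5 days and 1 day (log2 difference 1.23 and 1.16, adjusted p = 0.000538 and 0.000436), and the mRNA-destabilising Zfp36 rose at 1 day (1.45, adjusted p = 0.0267). Of 5 tested receptors and cytokines of the G-CSF, leptin, IL-10 and IL-22 systems, Il10rb, the second chain of the IL-10 receptor, fell at 0.5 days (-0.50, adjusted p = 0.0475). The other family ligands (4 of 8 tested), other receptor chains (3) and other C/EBP genes (5 of 6 tested) had 0 calls at 0.5 days and 1 day, with 1, 0 and 1 at an unadjusted p under 0.05 at 0.5 days and 2, 2 and 0 at 1 day, beside 18.1% and 21.7% of all genes. The calls of Jak3, Socs4, Socs5, Zfp36 and Il10rb, and the 1-day call of Tnfrsf1a, each rest on the setting. With the description number in the model the JAK and STAT, negative regulator and IL-1 and TNF counts were 0 at 1 day, and the count of Il10rb's list was 0 at 0.5 days. Leaving out Naïve replicate 1 or Arrest 0.5-day replicate 1 or 3 gave 0 JAK and STAT genes at 0.5 days, and leaving out Naïve replicate 1 or Arrest 1-day replicate 2 or 4 gave 0 at 1 day. Leaving out Naïve replicate 1 or Arrest 1-day replicate 1, 2 or 3 gave 1 negative regulator at 1 day, and leaving out Naïve replicate 4 or Arrest 1-day replicate 1, 2 or 3 gave 1 gene of the IL-1 and TNF axis. For Il10rb's list the count was 0 without any 1 of the 5 Naïve libraries, among others.

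Genes with the pattern most like Socs3 over the 37 libraries were Sbno2 (Pearson r = 0.935, Spearman rho = 0.914), Ccl6 (r = 0.887), Gda (r = 0.867), Il4ra (r = 0.864) and Ly6a (r = 0.855). Those most like Osmr were Ly6a (r = 0.914, rho = 0.884), Tnfrsf1a (r = 0.903), Serpina3n (r = 0.862), Sbno2 (r = 0.858) and Lrg1 (r = 0.857). The points share the same libraries and the same group structure, so these values describe likeness and are not tested. Sbno2, a transcriptional coregulator, went from 1.59 ± 0.417 FPKM in Naïve to 6.34 ± 1.29 FPKM at 0.5 days after arrest and 2.003 ± 0.305 FPKM at 7 days. Ly6a, which encodes the surface antigen Sca-1, went from 101.2 ± 7.58 to 273.8 ± 18.0 and 119.4 ± 7.22 FPKM.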

How the data were processed

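RNA was isolated from left ventricular tissue, sequenced by Novogene and aligned by or for the authors with HISAT2 2.0.5, and the authors' own tests used DESeq2. The deposited FPKM values of 56748 genes in 37 libraries were made by the authors, with 1 column per library (0 columns unused). The genome build, annotation, counting tool and strand setting are not given in the sources used here, so overlapping and antisense genes are uncertain. The deposited FPKM times gene length and a divisor inferred for each library from the steps of its low values was whole (tolerance 0.01) in 100% of values, which gave 13.2 M to 30.2 M fragments per library. The divisor was 0.889 to 1.41 times that total. The median ratio of each library to the geometric mean over libraries was 1.01 in every library, so the FPKM values already carried a scaling of that kind. No library copied another of its group (lowest chi-square per gene 10.8 over 58 pairs). The study excluded a poor-quality Adr 3-day sample that the labels do not identify, so all 4 were kept and each was left out in turn.

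Values were used as deposited. Genes reaching 0.5 FPKM in 4 or more libraries were fitted on log2(FPKM + 1) with 1 mean per group and no covariates (limma 3.58.1 with a trend in eBayes, R 4.3.3), and with Benjamini-Hochberg adjustment within each comparison. A fold change on this scale understates the change of low genes. Il6 and Osm were compared with exact permutation tests in scipy 1.17.1. The study's methods name DESeq2, a count test that does not suit FPKM. Alternatives were other scalings, a pseudocount of 0.1, other filters, removal of the trend with gene length, sample weights, sex, the description number, the replicate number, the compared groups alone, limma-voom and leaving out each library. Named are the 10 genes, at most 6 called genes per pathway list with values, and the 5 genes most like Socs3 and Osmr. The genes and lists were chosen with earlier results of these data known. Intervals and floors for fragment counts cover counting error only.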

Additional observations from a re-analysis of the deposited data

Results flagged for a closer look

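In 14 of 88 sets of 1 gene in 1 group, a single library stood apart from the rest of its group by Dixon's test. For continuous, normal values chance alone gives about 1 in 20 such sets. That rate does not hold for Il6, Osm and Lif, where many libraries lie at or near 0. The sets also share libraries and are not independent, so 14 of 88 cannot be read as an excess.

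Arrest 0.5-day replicate 2 stood above its group in Socs3 (25.7 FPKM, the others 10.03 to 11.7) and in Osm (1.98 FPKM, the others 0.188 to 0.289). Adr 3-day replicate 3, the library of low mitochondrial share, stood apart in Osm (3.26 FPKM, the others at 0) and in Il6 (0.956 FPKM, the others 0 to 0.0985). Adr 3-day replicate 4 stood above its group in Cebpd (47.6 FPKM, the others 14.3 to 15.9).

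In Socs3, Naïve replicate 4 was the highest of its group at 4.55 FPKM (the others 1.81 to 2.31), and Adr 7-day replicate 4 was the lowest of its group at 0.961 FPKM (the others 2.58 to 2.84). Lifr was lowest in Arrest 7-day replicate 3, at 4.32 FPKM (the others 5.24 to 5.44). The remaining sets rest on few fragments. Il6 was at 0.0275 FPKM in Adr 0.5-day replicate 3, 0.187 FPKM in Adr 7-day replicate 1, 0.190 FPKM in Arrest 3-day replicate 4 and 0.183 FPKM in Arrest 7-day replicate 4, with the others of each group at 0 or, in the Adr 7-day group, at most 0.0251 FPKM. Osm was at 0 in Adr 7-day replicate 1 (the others 0.215 to 0.233 FPKM), and Lif at 0.258 FPKM in Adr 0.5-day replicate 1 (the others at most 0.0307 FPKM).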

How the results depend on the processing

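Of 7543 values of the 8 genes under an alternative, 7284 kept their direction and side of the threshold, 82 lost a call, 27 gained one, and 150 that were not called turned sign. Among them, the 133 by median-ratio rescaling are no check of scaling, since the factor was the same in every library. No called value turned sign. At 0.5 days after arrest the 4 genes against Naïve were 4 under every alternative other than leaving out a library, and 2 to 4 when 1 library was left out (2 without Arrest 0.5-day replicate 2). At 1 day they were 2 to 4 when 1 library was left out (2 without Arrest 1-day replicate 3, where Socs3 had adjusted p = 0.0547 and Stat3 0.0507) and 0 with the description number in the model. In that fit the log2 differences were 1.62 for Socs3, 0.80 for Stat3, 1.55 for Osmr and 1.66 for Cebpd, with adjusted p = 0.255, 0.112, 0.0751 and 0.131. Sample quality weights gave 1 call in Arrest against Adr at 0.5 days (Osmr, adjusted p = 0.0341) and 1 in Adr at 7 against 0.5 days (Il6st, adjusted p = 0.0345).

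From 7 against 1 day after arrest the 2 genes became 0 with quantile normalization, without a filter, with sex or the description number in the model, 1 with scaling to the fragments counted on genes or a pseudocount of 0.1, 4 with a mean of at least 1 FPKM, 5 with sample quality weights, and 0 to 4 when 1 library was left out (4 without Adr 3-day replicate 3, Adr 3-day replicate 4 or Arrest 3-day replicate 1). A count of 2 was not always the same genes: with the trend with gene length removed it was Stat3 and Osmr, and by limma-voom Cebpd and Osmr. With the replicate block, the replicate number of the titles as a block, they were 0. From 7 against 0.5 days the 3 genes became 1 without a filter and 0 to 3 when 1 library was left out. The cause was not tested in any of these. The replicate numbers did not pair the libraries: libraries of other groups correlated on average with r = -0.01 under the same number and 0.00 under another, and 4 of 36 correlated best with their own number. The block changed no other count of these 8 genes by over 1.5 times, and gave 5 STAT3-induced and acute phase genes at 0.5 days after arrest in place of 11. That count was 6 in the compared groups alone, without a filter, by limma-voom and with the trend with gene length removed. The median of all genes moved to 0.10 in Adr at 1 day with scaling to fragments and to 0.12 in Adr at 0.5 days by limma-voom. The depth of 13.2 M to 30.2 M fragments limits Il6, Osm and Lif, where 3 fragments stand for up to 0.102 FPKM.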
